A study of Mus musculus with 6 samples.

Results

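The genes described here encode the subunits of oxidative phosphorylation that are made from the nuclear genome, together with a few factors whose symbols share the same stems. They were chosen by symbol alone, as all genes named Nduf, Sdh, Uqcr, Cyc1, Cox4 to Cox8 or Atp5 with a subunit suffix and no pseudogene mark. This gave 92 of the 22001 genes in the count table: 44 of complex I, 4 of complex II, 9 of complex III, 19 of complex IV and 16 of complex V. Of these, 82 are subunits, 8 are assembly factors, Cox7a2l is a supercomplex factor and Atp5s is a coupling factor. RNA-seq libraries were made from neocortical cells of mouse embryos at E14.5. Plasmid DNA had been electroporated in utero at E13.5, 24 h earlier, and mCherry-positive cells were used. The 3 control libraries came from embryos given a plasmid for the red fluorescent protein mCherry alone. The 3 Insm1 libraries came from embryos given a plasmid for both mCherry and Insm1, a zinc-finger transcription factor of newborn neuronal cells. No strain, knockout allele or sex is given in the labels, and both groups share the electroporation and the sorting for mCherry. Libraries are numbered 1 to 3 in each group, with no statement in the labels that each is a separate litter or pool. A p-value here therefore reflects library-to-library spread, some of which may be technical.

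Oxidative phosphorylation takes place in the inner mitochondrial membrane. Complexes I and II pass electrons from NADH and succinate to coenzyme Q, complex III passes them to cytochrome c, and complex IV passes them to oxygen, while complexes I, III and IV pump protons that drive ATP synthesis by complex V. All but complex II also hold subunits made in the mitochondrion from its own DNA, so the assembly of a complex needs products of both genomes. Neural progenitors are known to rely more on glycolysis, and neurons more on oxidative phosphorylation.

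The promoters of these genes are known to share binding motifs for regulators of mitochondrial genes. RefSeq windows from 250 bases before to 50 bases after the start of transcription (build GRCm38.p6) were found for 73 of the 92 genes, in 78 windows. Both strands were searched for the NRF1 core CGCNTGCGC, the GABPA motif CCGGAAGT, the YY1 motif AAGATGGCG, the ESRRA motif TCAAGGTCA and an INSM1 core, CAGGGGGC. The NRF1 core, whose reverse complement overlaps it where the letters are palindromic, was in 23 of the 78 windows, or 29.5%. It was in 12.6% of the 12956 windows of tested genes and in 6.25% of all 32851 windows. The YY1 motif was in 8.97% of the windows of these genes and 2.77% of those of tested genes. The GABPA motif was in 6.41% (5 windows) against 7.29%. The ESRRA motif was in 2.56% against 0.309%, the former being only 2 windows. The INSM1 core was in 5.13% (4 windows) against 4.48%. The median GC content was 57.5% in these windows and 60.7% in those of tested genes. A match describes letters only and does not show that a factor binds there. The stretches printed here show how such matches lie before the start of one subunit gene per complex. Each is the part of the window before both the RefSeq start and the GENCODE M21 gene start, for a subunit with the most matches there, chosen after the matches were seen. Ndufa11, Sdha and Cox6a1 had the most in their complexes. In complex III, Uqcr11, Uqcrc1 and Uqcrh had 1 match each, and in complex V, Atp5e, Atp5g3, Atp5h and Atp5l did, and the first by name is printed. Capitals mark the matches.
Ndufa11, complex I, chr17:56717512-56717761, plus strand, NRF1 cores on both strands that overlap:
Ndufa11: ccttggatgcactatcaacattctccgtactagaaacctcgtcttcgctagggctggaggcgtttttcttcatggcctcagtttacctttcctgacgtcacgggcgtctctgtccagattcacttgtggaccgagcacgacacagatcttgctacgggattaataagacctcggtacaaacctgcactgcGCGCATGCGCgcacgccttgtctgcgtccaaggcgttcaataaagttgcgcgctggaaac
Sdha, complex II, chr13:74350281-74350490, minus strand, 2 separate NRF1 cores:
Sdha: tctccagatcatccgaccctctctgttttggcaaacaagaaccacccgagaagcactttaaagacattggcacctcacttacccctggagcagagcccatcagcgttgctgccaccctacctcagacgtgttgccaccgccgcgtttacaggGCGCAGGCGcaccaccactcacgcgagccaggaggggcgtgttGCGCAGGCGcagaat
Uqcr11, complex III, chr10:80406831-80407071, minus strand, a GABPA motif:
Uqcr11: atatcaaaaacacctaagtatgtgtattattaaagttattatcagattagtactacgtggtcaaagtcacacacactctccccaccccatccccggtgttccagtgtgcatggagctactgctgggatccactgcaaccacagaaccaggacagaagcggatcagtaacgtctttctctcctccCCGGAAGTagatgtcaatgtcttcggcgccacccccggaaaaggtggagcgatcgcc
Cox6a1, complex IV, chr5:115348982-115349208, minus strand, 3 NRF1 cores of which a pair overlaps:
Cox6a1: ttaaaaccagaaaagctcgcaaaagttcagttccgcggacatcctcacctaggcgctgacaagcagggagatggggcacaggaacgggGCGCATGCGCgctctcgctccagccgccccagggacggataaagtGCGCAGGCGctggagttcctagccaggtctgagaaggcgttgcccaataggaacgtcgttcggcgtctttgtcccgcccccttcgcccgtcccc
Atp5e, complex V, chr2:174464106-174464351, minus strand, an INSM1 core:
Atp5e: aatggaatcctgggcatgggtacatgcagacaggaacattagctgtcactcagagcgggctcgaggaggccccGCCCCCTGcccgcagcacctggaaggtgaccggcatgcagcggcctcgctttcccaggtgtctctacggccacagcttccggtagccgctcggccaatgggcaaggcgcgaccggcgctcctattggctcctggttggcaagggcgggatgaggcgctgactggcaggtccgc

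The count table held between 30017645 and 31645135 counts per library. Insm1 itself, which the plasmid encodes, was at 222, 331 and 371 CPM (counts scaled to the size of the library) in the control libraries and at 1570, 2173 and 1436 CPM in the Insm1 libraries. The groups did not overlap, and Insm1 was 5.61-fold higher (log2 fold change 2.49 ± 0.26 SE, edgeR adjusted p = 0.0122); counts cannot separate plasmid from chromosomal transcripts. Among markers of cortical cells, 4 of 9 apical progenitor genes were called lower by edgeR and 0 higher (Fabp7, log2 -0.85, and Slc1a3, log2 -1.07). Of basal progenitor genes, 2 of 5 were called higher and 0 lower (Nhlh1, log2 0.96, and Mfng, log2 0.34). Of projection neuron genes, 3 of 8 were called higher and 0 lower (Tubb3, log2 0.39, and Neurod6, log2 0.31). Without regard to calls, 2 basal progenitor genes were below 0, the lowest at -0.12. For projection neurons it was 1 of 8, at a log2 fold change of -0.61, with all Insm1 libraries below all controls. Of 6 interneuron markers 0 were called by edgeR, with 2 at an unadjusted p below 0.05, 5 below 0 and a median log2 fold change of -0.834. Their sums were 11.3, 8.31 and 16.1 CPM in the controls and 8.21, 6.97 and 5.4 CPM in the Insm1 libraries. Summed markers of endothelial cells, pericytes and meninges stayed at or below 3.43 CPM per list in every library, and those of microglia ran from 0.712 to 39.9 CPM, highest in control library 2. The 8 erythroid markers summed to 754, 5495 and 325 CPM in the controls and to 5054, 5150 and 3798 CPM in the Insm1 libraries, with 0 of 8 called by edgeR and 0 at an unadjusted p below 0.05. In bulk samples like these, fewer cells of a type and less RNA per cell cannot be told apart.

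None of the oxidative phosphorylation genes passed the test between the Insm1 and control libraries. With edgeR's quasi-likelihood test, 0 of the 87 genes with enough counts were called at an adjusted p below 0.05, while 3.35% of all 13560 tested genes were called. At an unadjusted p below 0.05 there were 2 of 87, Cox6b2 and Ndufb8, against a background of 17.2% of tested genes, and DESeq2 and limma-voom each had 1 and called 0. The lowest adjusted p was 0.247. Their differences were small: the median absolute log2 fold change was 0.058, against 0.147 over all tested genes, and the median SE was 0.082 against 0.136. The 92 genes lie on 19 chromosomes, and for 21 of them, among them Cox4i1, Atp5a1, Ndufs1 and Ndufs3, exons overlap those of a gene on the other strand, whose reads cannot be told apart in these libraries. For 66 of 87 genes (75.9%) the log2 fold change lay within 0.1 of 0, as it did for 37.4% of all tested genes and 50.7% of the 5679 tested genes at 27.9 to 206 CPM. That band holds most of the oxidative phosphorylation genes and was set after the data were seen; its median absolute log2 fold change was 0.098.

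**Figure D1:**
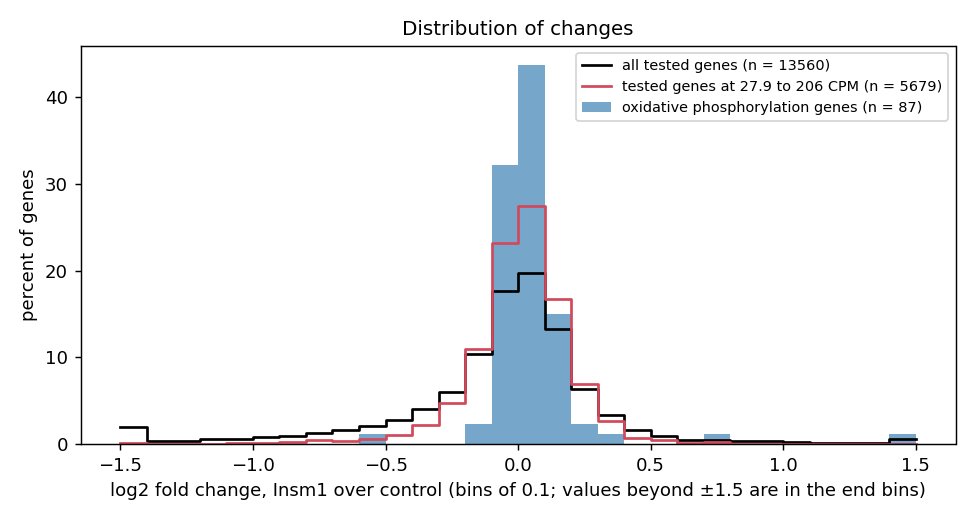
Percent of genes (vertical axis) by log2 fold change of Insm1 over control libraries (horizontal axis, bins of 0.1), for the 87 oxidative phosphorylation genes (bars), all 13560 tested genes (black line) and the 5679 tested genes at 27.9 to 206 CPM (red line). The bars are gathered around 0, with Cox6b2 at 1.44, Cox7a1 at 0.73 and Atp5s at -0.56 as the members farthest out.

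The intervals say how large a change these libraries leave room for. The 95% interval lay within 1.5-fold in either direction for 82 of 87 genes (94.3%), against 59.3% of all tested genes and 91.2% of those in the same CPM band. The 5 genes with wider intervals were Ndufaf1, Ndufaf5, Cox6b2, Cox7a1 and Atp5s, at most 18.1 CPM in any library. Among the 75 tested subunits that are not tissue-restricted isoforms, the lowest bound was 1.28-fold lower, for Uqcr10, and the highest bound was 1.31-fold higher, for Ndufs8. The log2 fold changes of these 75 ran from -0.12 to 0.19. The groups of libraries did not overlap for 13 of 87 genes, 10 with all Insm1 libraries higher and 3 with all lower, and the background was 22.2% of tested genes. The 10 were Ndufa8, Ndufa11, Ndufa13, Ndufb8, Ndufs8, Uqcrc1, Cyc1, Cox5a, Cox5b and Cox6b2, and the 3 were Ndufb3, Atp5f1 and Atp5g3. The median log2 fold change was 0.021 over the 87 genes and -0.009 over all tested genes. Values were above 0 for 56 of the 87 (64.4%) and below for 31. The share above 0 was 48.1% of all tested genes and 55.7% of those in the same CPM band.

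**Figure D2:**
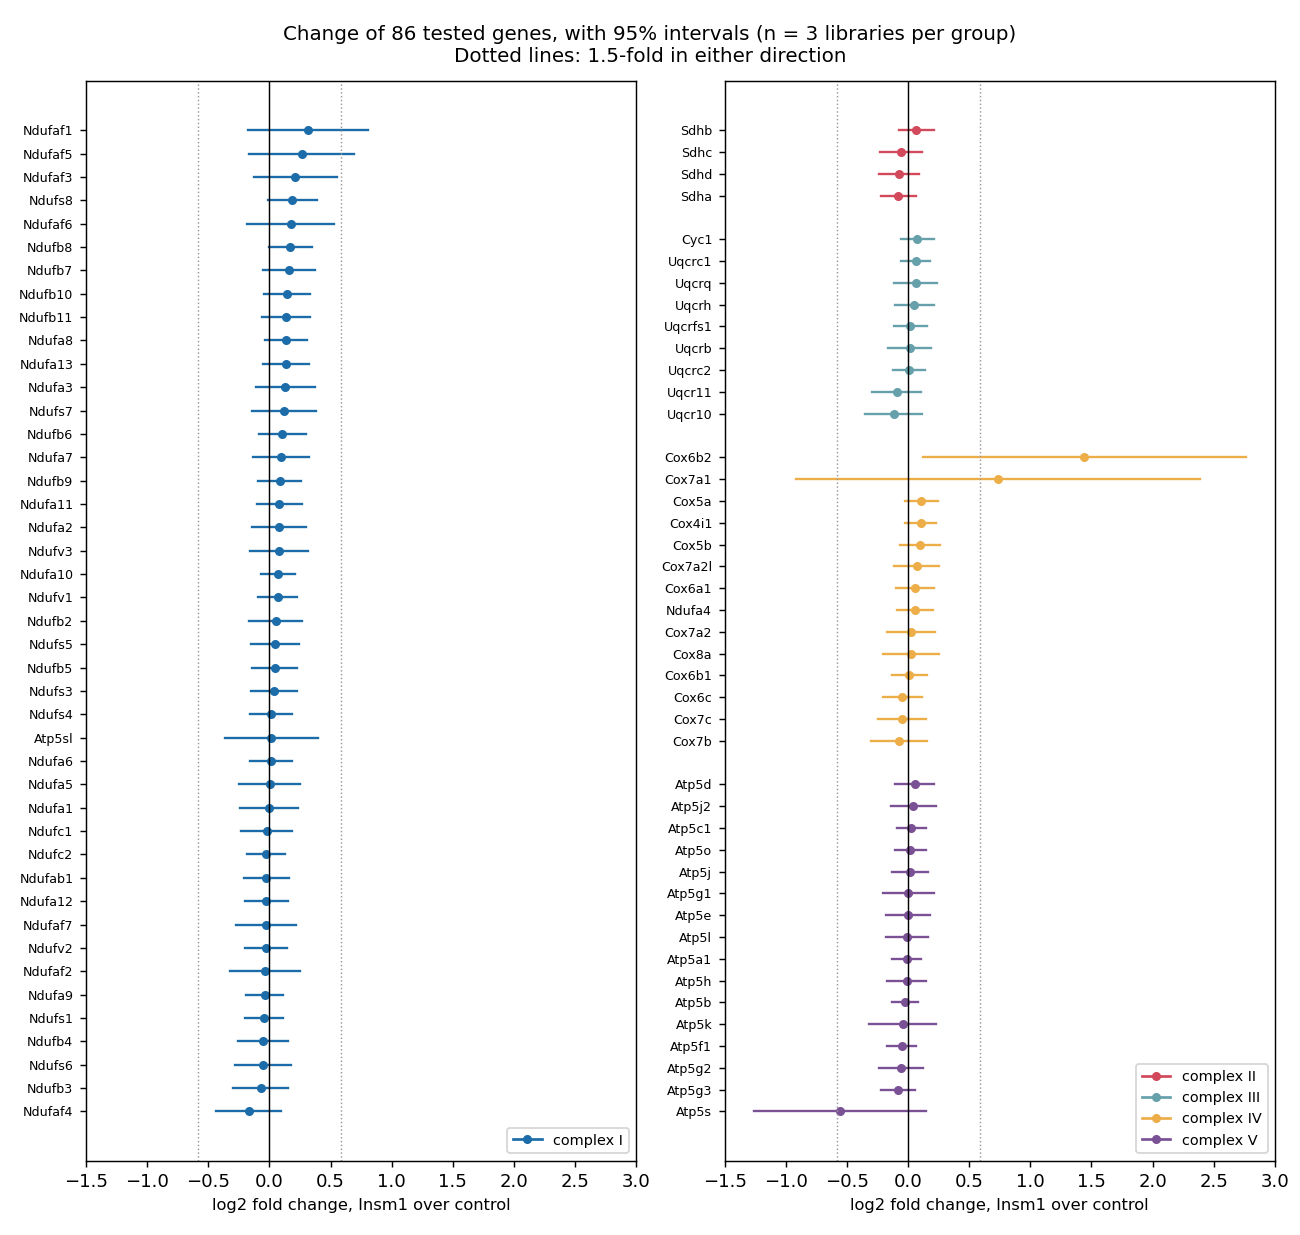
Log2 fold change of Insm1 over control libraries (points) with 95% intervals (lines) for 86 of the 87 tested genes, with complex I on the left and complexes II to V on the right, ordered by value within each complex; dotted lines mark 1.5-fold. Intervals of 81 of the genes drawn lie between the dotted lines.

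Complex I, which oxidises NADH, had a median log2 fold change of 0.060 over its 44 genes, with 30 above 0, 14 below and 0 called by edgeR. Its 36 subunits summed to 2565, 2563 and 2568 CPM in the controls and to 2759, 2550 and 2668 CPM in the Insm1 libraries. Insm1 library 1 was highest and Insm1 library 2 lowest, so the groups overlapped, and the ratio of means was 1.04.

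The 7 nuclear core subunits carry the flavin and the iron-sulphur clusters that take electrons from NADH to coenzyme Q. None was called, with 5 above 0 and 2 below. Ndufs8, an iron-sulphur subunit, was at 51.9, 47.3 and 55.5 CPM in the controls and at 59.3, 58 and 58.9 CPM in the Insm1 libraries. All Insm1 libraries were higher than all controls, with a log2 fold change of 0.19 ± 0.09 SE (edgeR adjusted p = 0.314). Ndufv1, which binds NADH, had a log2 fold change of 0.07 with an interval from -0.09 to 0.23. Log2 fold changes were -0.04 for Ndufs1, 0.03 for Ndufs3, 0.12 for Ndufs7 and -0.03 for Ndufv2.

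The 29 accessory subunits surround this core, and many are needed for its assembly or stability. Of the 29, 20 were above 0 and 9 below. Ndufb8, a subunit of the membrane arm (GRCm38 chr19:44548572-44555440, minus strand), was at 89.5, 95.6 and 92.9 CPM in the controls and at 106, 96.1 and 111 CPM in the Insm1 libraries. The lowest Insm1 library exceeded the highest control only slightly, and the log2 fold change was 0.17 ± 0.08 SE (edgeR adjusted p = 0.289). Its exons overlap those of Gm20538 on the same strand, and reads of the overlap cannot be told apart. Ndufb10 and Ndufb11, the complex I subunits of highest deposited TPM, had log2 fold changes of 0.14 each, with edgeR adjusted p of 0.46 and 0.493. The deposited TPM depend on intron length, as described below. Per transcript length these subunits ranked only 50 and 47 among the oxidative phosphorylation genes. Ndufb11 is 1 of 3 of the genes on the X chromosome, and the other two had log2 fold changes of -0.00 (Ndufa1) and -0.07 (Cox7b).

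The assembly factors among these genes, which build complex I without staying in it, are Ndufaf1 to Ndufaf7 and Atp5sl. Their summed CPM lay between 146 and 173 in the controls and between 161 and 171 in the Insm1 libraries. Ndufaf1 was at 14.9, 8.7 and 16.6 CPM in the controls and at 18.1, 16 and 15.9 CPM in the Insm1 libraries. Control library 2 was far below the others, and the log2 fold change was 0.31 with an interval from -0.18 to 0.80 (edgeR adjusted p = 0.547). Over the 8 factors the values ran from -0.17 to 0.31, with 5 above 0, 3 below and 0 called.

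Complex II, which oxidises succinate and is shared with the citric acid cycle, is built from 4 nuclear genes. Sdha, the flavoprotein that binds succinate, was at 259, 257 and 245 CPM in the controls and at 226, 255 and 238 CPM in the Insm1 libraries. The groups overlapped, and the log2 fold change was -0.08 ± 0.06 SE (edgeR adjusted p = 0.593). The log2 fold change was 0.07 for Sdhb, the iron-sulphur subunit, and -0.05 and -0.07 for the membrane anchors Sdhc and Sdhd. The 4 genes summed to 574, 566 and 557 CPM in the controls and to 544, 559 and 555 CPM in the Insm1 libraries, a ratio of 0.976 with overlapping groups.

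Complex III, the cytochrome bc1 complex, had a median of 0.019 over 9 genes, with 7 above 0, 2 below and 0 called. Cyc1, the cytochrome subunit that hands electrons to cytochrome c, was at 150, 149 and 150 CPM in the controls and at 158, 162 and 154 CPM in the Insm1 libraries. The groups did not overlap, but the log2 fold change was only 0.08 ± 0.06 SE (edgeR adjusted p = 0.589). Uqcrfs1, the Rieske iron-sulphur protein, had a log2 fold change of 0.02, with an interval from -0.11 to 0.15. The small subunits Uqcr10 and Uqcr11 had the largest differences of the complex, at -0.12 and -0.09. Uqcr10 was at 58.5, 56.7 and 63.1 CPM in the controls and at 62.3, 48.9 and 53 CPM in the Insm1 libraries, and the highest value of the Insm1 group was close to that of the controls. The complex summed to 1254, 1211 and 1230 CPM in the controls and to 1272, 1240 and 1259 CPM in the Insm1 libraries.

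Complex IV, cytochrome c oxidase, had a median of 0.058 over 14 tested genes, with 11 above 0, 3 below and 0 called by edgeR. Cox4i1, a regulatory nuclear subunit, was at 288, 271 and 263 CPM in the controls and at 299, 287 and 296 CPM in the Insm1 libraries. The lowest Insm1 library lay just under the highest control, and the log2 fold change was 0.10 ± 0.06 SE (edgeR adjusted p = 0.438). Cox6a1 had a log2 fold change of 0.06 ± 0.07 SE. Ndufa4, once assigned to complex I and now placed in complex IV, was at 130, 123 and 131 CPM in the controls and at 136, 136 and 127 CPM in the Insm1 libraries. These values overlapped, with a log2 fold change of 0.06 ± 0.07 SE (edgeR adjusted p = 0.747).

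Several complex IV subunits exist as a ubiquitous form and a form restricted to muscle, lung or testis, and the ubiquitous forms made up nearly all of the RNA. Per transcript length, Cox4i1 was 99.9% ± 0.0457 (SD, n = 3) of Cox4i1 and Cox4i2 together in the controls and 99.9% ± 0.0162 in the Insm1 libraries. Cox6a2, Cox8b and Cox8c, known from muscle or testis, had 0 counts in all 6 libraries, which allows up to 0.0162 CPM over the 6 libraries (3 counts, counting error only). Cox4i2, known from lung, had 43 counts in all and Cox7b2 had 4, too few to be tested. Cox6b1 was 99.7% ± 0.136 of its pair in the controls and 99.1% ± 0.341 in the Insm1 libraries. Cox6b2, known from testis (GRCm38 chr7:4751792-4753094, minus strand), gave 11, 5 and 12 counts in the controls and 36, 16 and 25 counts in the Insm1 libraries. All Insm1 libraries were higher, and the log2 fold change was 1.44 with an interval from 0.12 to 2.76 (edgeR adjusted p = 0.247). At 0.303 ± 0.123 CPM (SD, n = 3) in the controls and 0.83 ± 0.323 CPM in the Insm1 libraries, this gene had the largest log2 fold change of all 87 and a level of 2.67 TPM per transcript length. Cox7a1, the muscle form, was at most 0.452 CPM in any library, and Cox7a2 and the supercomplex factor Cox7a2l made up the rest of their family, at 54.7% and 45.1% in the controls and 53.8% and 45.9% in the Insm1 libraries.

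Complex V, the ATP synthase, held the gene with the highest level per transcript length, Atp5b, and had a median of -0.010, with 7 of 16 above 0, 9 below and 0 called. Atp5b, the catalytic subunit of the F1 head, was at 1067, 1033 and 1063 CPM in the controls and at 1028, 1063 and 1012 CPM in the Insm1 libraries. The groups overlapped, and the log2 fold change of -0.03 had an interval from -0.13 to 0.08 (edgeR adjusted p = 0.849), a range of 0.911-fold to 1.06-fold. Atp5a1, its partner in the head, had a log2 fold change of -0.01 ± 0.05 SE. The 5 F1 genes summed to 2452, 2386 and 2369 CPM in the controls and 2387, 2430 and 2344 CPM in the Insm1 libraries, and the 10 genes of the membrane part and stalk had a ratio of 0.988.

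The rotating ring of ATP synthase is made of identical mature proteins from Atp5g1, Atp5g2 and Atp5g3. Atp5g3 was at 132, 124 and 130 CPM in the controls and at 120, 123 and 121 CPM in the Insm1 libraries. The Insm1 libraries were all lower, by little, with a log2 fold change of -0.09 ± 0.06 SE (edgeR adjusted p = 0.564). The log2 fold change was -0.06 ± 0.08 SE for Atp5g2 and 0.00 ± 0.09 SE for Atp5g1. Per the shortest principal transcript, Atp5g1 made up 25.3% ± 0.663 of the 3 genes in the controls and 26.3% ± 1.79 in the Insm1 libraries, Atp5g2 34% and 33.9%, and Atp5g3 40.6% and 39.8%. With the longest principal transcript, Atp5g1 made up 5.01% and 5.28%, so the shares of the genes depend on the transcript assumed. The coupling factor Atp5s was at 7.38, 3.21 and 6.66 CPM in the controls and at 4.14, 3.44 and 4.14 CPM in the Insm1 libraries. Control library 2 was the lowest of all, and the log2 fold change was -0.56 with an interval from -1.26 to 0.14 (edgeR adjusted p = 0.426). Without that library the adjusted p was 0.0825, the lowest of any of these genes in any alternative.

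The libraries of a group were not alike in these genes. Insm1 library 1 was the highest of the 6 for 38 of 87 genes, while Insm1 library 2 was the lowest for 28 and control library 2 for 25. The median deviation of a gene from its mean over the libraries was 0.078 log2 units in Insm1 library 1 and -0.030 in Insm1 library 2, although both belong to the same group. Among the 44 genes whose transcripts were no longer than 780 bases, these medians were 0.108 and -0.060, and among the 43 longer ones 0.034 and -0.011. All 92 genes together took up 0.973% to 0.993% of the scaled counts in the controls and 0.979% to 1.02% in the Insm1 libraries, so the groups overlapped. Erythroid RNA was high in Insm1 library 1 and in Insm1 library 2 alike, and its part in these differences was not tested.

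**Figure D3:**
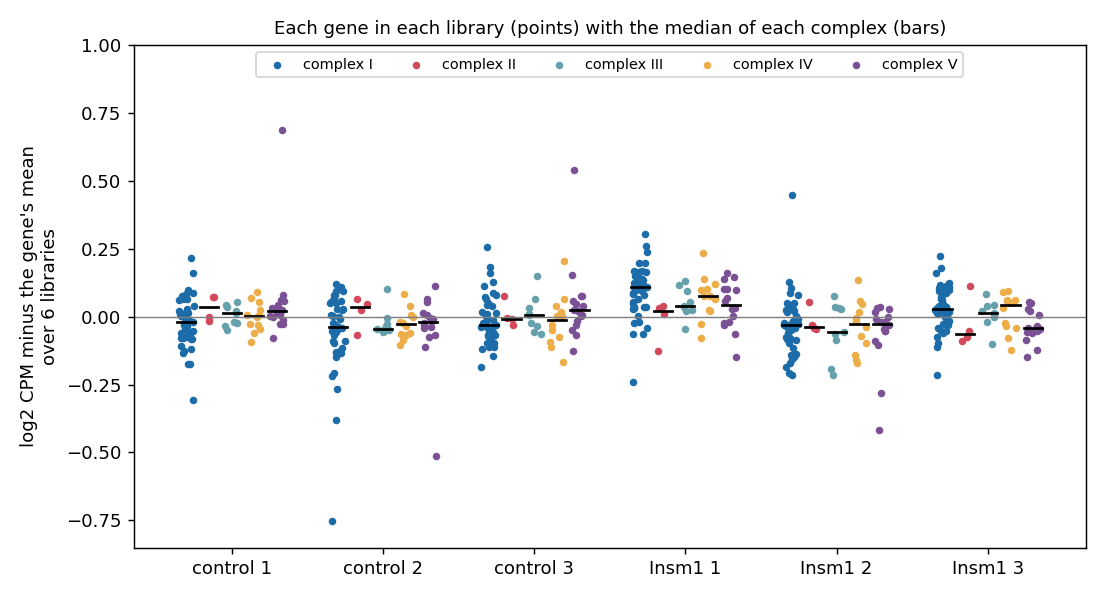
Log2 CPM of each of 85 genes in each library minus the gene's mean over the 6 libraries (points, coloured by complex), with the median of each complex as a bar; Cox6b2 and Cox7a1, at most 1.16 CPM in any library, are left out. For complex I the medians are 0.107 in Insm1 library 1 and -0.030 in Insm1 library 2, with the 3 controls between -0.037 and -0.018.

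Other lists of mitochondrial genes were not called either. The 13 subunits encoded in mitochondrial DNA, which join the nuclear subunits in complexes I, III, IV and V, had a median log2 fold change of 0.018 and 0 called by edgeR, with 0 at an unadjusted p below 0.05. They summed to 20065, 16680 and 19267 CPM in the controls and to 17763, 18851 and 18836 CPM in the Insm1 libraries, with control library 2 lowest and the groups overlapping. None was called of 40 assembly factors outside the symbol rule, 14 genes of coenzyme Q synthesis and electron carriers or 14 citric acid cycle genes. Nor were 9 genes of ATP and phosphate transport or ATP synthase, 77 mitochondrial ribosomal proteins, 22 import translocases and 80 cytosolic ribosomal proteins. At an unadjusted p below 0.05 in edgeR there were 1, 1, 3, 1, 1, 2 and 3 genes of these lists, in that order. The background was 17.2% of all tested genes. The 9 include the channels Vdac1 to Vdac3, and the ATP synthase subunits Usmg5 and 2010107E04Rik, which the symbol rule does not take. Cycs, which is cytochrome c and carries electrons from complex III to complex IV, had a log2 fold change of -0.00 with an interval from -0.16 to 0.16. The citric acid cycle genes had a median of -0.038, with 5 above 0 and 9 below. Of the 3 at an unadjusted p below 0.05, Mdh2, malate dehydrogenase, had a log2 fold change of 0.13, while Idh2, an isocitrate dehydrogenase, was at -0.24 and Dlst, a subunit of the oxoglutarate dehydrogenase complex, at -0.21 (edgeR adjusted p = 0.255, 0.201 and 0.205). Tomm70a, an import receptor, had a log2 fold change of -0.20 (edgeR adjusted p = 0.116) and Slc25a5, an exchanger of ADP and ATP, one of -0.12 (edgeR adjusted p = 0.288), and the Insm1 libraries were lower than all controls for both. The most abundant genes of the other lists, mt-Atp6, Coa5, Mrps25 and Rpl4, had log2 fold changes of -0.00, 0.04, 0.00 and -0.04, with overlapping groups.

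The regulators of mitochondrial gene expression had larger values, though none was called. Of 17 tested, 6 had an unadjusted p below 0.05 in edgeR, against the background of 17.2%. The list median was -0.148, with 7 above 0 and 10 below. The median SE was also larger, at 0.162 against 0.082 for the oxidative phosphorylation genes. Ppargc1a, the coactivator that induces mitochondrial genes, was at 13.8, 11.3 and 8.91 CPM in the controls and at 6.66, 8.88 and 5.17 CPM in the Insm1 libraries. The groups were separate only by a narrow gap, and the log2 fold change was -0.71 ± 0.24 SE (edgeR adjusted p = 0.158). The log2 fold change was -0.21 for Tfam, which packs mitochondrial DNA and starts its transcription (edgeR adjusted p = 0.267), and -0.28 for Polrmt, the mitochondrial RNA polymerase (adjusted p = 0.234). Among transcription factors it was -0.18 for Gabpa (adjusted p = 0.23), -0.53 for Nfe2l2 (adjusted p = 0.232) and 0.35 for Esrra (adjusted p = 0.223). Nrf1, whose core motif is printed in the promoters of Ndufa11, Sdha and Cox6a1, was at 102, 125 and 122 CPM in the controls and at 117, 122 and 131 CPM in the Insm1 libraries, with overlapping groups and a log2 fold change of 0.09 ± 0.09 SE (edgeR adjusted p = 0.71). Of 10 genes for the upkeep and transcription of mitochondrial DNA, 0 were called by edgeR, 1 had an unadjusted p below 0.05 and the median was -0.133. Polg, the polymerase that copies this DNA, had a log2 fold change of -0.16 (edgeR adjusted p = 0.494). The gene with an unadjusted p below 0.05 was Tefm, an elongation factor, at -0.41 ± 0.14 SE (adjusted p = 0.151). In the biogenesis, DNA and citric acid cycle lists, all genes named with values other than Nrf1, Polg and Mdh2 were picked after their values were seen.

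**Figure D4:**
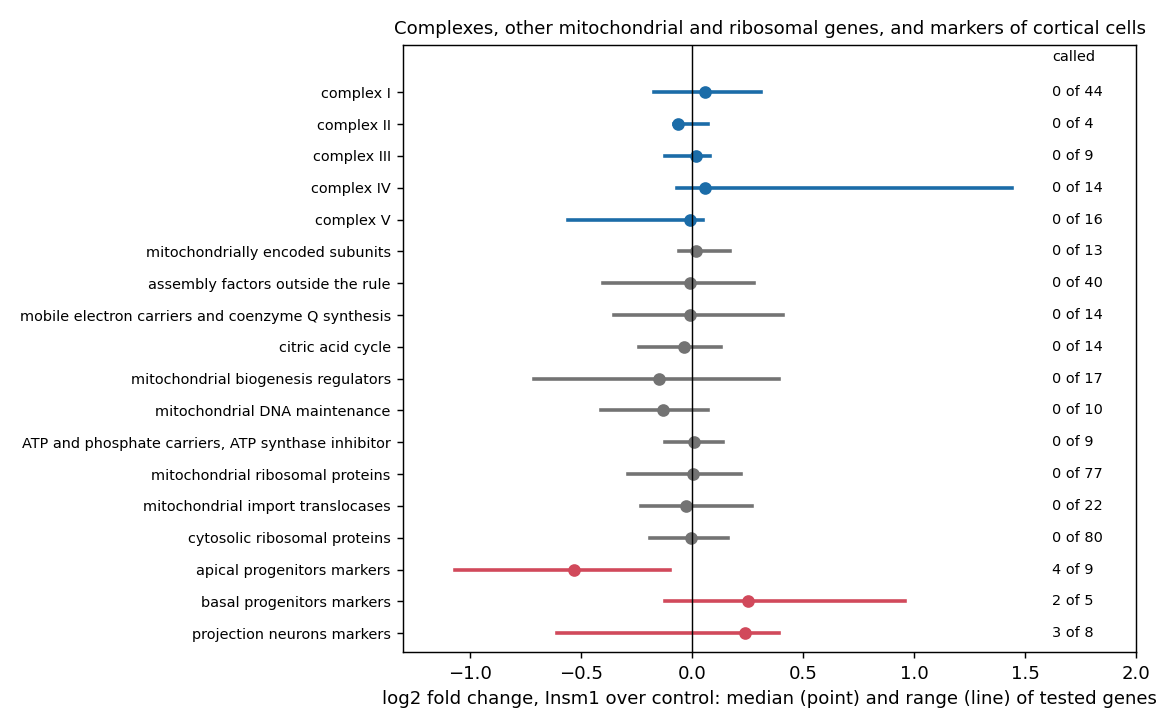
Median (point) and range (line) of the log2 fold change of Insm1 over control libraries for the tested genes of each list. Complexes are blue, other mitochondrial and ribosomal lists grey, and markers of apical progenitors, basal progenitors and projection neurons red. The number called of the number tested is at the right. Interneuron markers, with a median of -0.834, and markers of cells from outside the cortical lineage are not drawn. The 5 complexes have medians between -0.064 and 0.060, and apical progenitor markers have a median of -0.530.

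Levels between genes were compared per transcript length. TPM values, scaled to the same total in every library, are meant to divide each count by the length of the transcript, but the deposited TPM behaved as if divided by the length of the gene on the chromosome, introns included. The length implied by the deposited values was within 10% of the genomic span for 97.8% of 10360 genes, and within 10% of the summed exon length for 8.14%. For the oxidative phosphorylation genes it was within 10% of the genomic span for 81 of 85. Ndufs4, an accessory subunit of complex I, spans 100464 bases but has a transcript of 1698 bases. It had 72.4 ± 3.5 CPM (SD, n = 3) in the controls and a deposited TPM of 6.31, whereas the compact gene Cyc1, at 150 CPM, had a deposited TPM of 556. Atp5o, a stalk subunit, is among the exceptions, at 219 CPM and a deposited TPM of 7.75. Cyc1 is another, with an implied length of 0.881 of its genomic span. A length that is the same in each library moves a gene's ratio between libraries only through the total, by a factor common to all genes. An order of genes by the deposited TPM, however, depends on intron length as well as on counts.

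**Figure D5:**
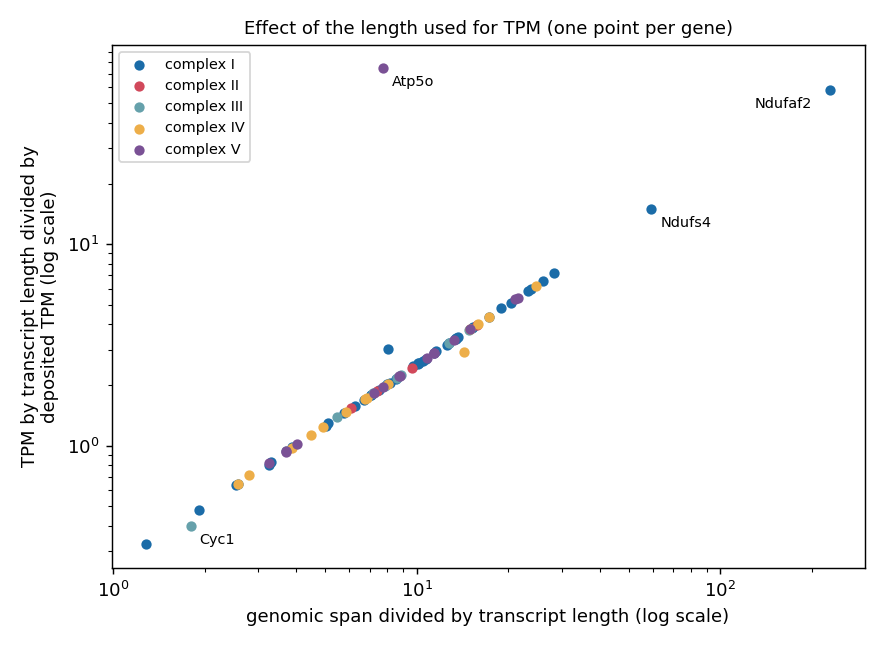
TPM recomputed by transcript length divided by the deposited TPM (vertical axis, log scale) against genomic span divided by transcript length (horizontal axis, log scale), with one point for each tested gene coloured by complex. The points lie along a line, with Ndufaf2 and Ndufs4 at the upper end and Atp5o far above the line.

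Recomputed with the shortest principal transcript, the median level of a subunit was 169 TPM in complex I, 164 in complex II, 312 in complex III, 432 in complex IV and 408 in complex V, leaving out the tissue-restricted isoforms. With the longest principal transcript these medians were 175, 182, 332, 465 and 452 TPM, in which the order of complexes I and II turned. The highest levels were 1200 TPM for Atp5b and 920 TPM for Cox6a1, both highest in their complex with either length. The 92 genes together made up 2.34% of TPM by the shortest transcripts, 2.36% by the longest and 1.28% of the deposited TPM.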

How the data were processed

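Single reads of 75 bases were sequenced from cDNA made with a poly-dT primer and template switching and amplified for 12 and then 15 cycles, per the labels' protocols. Such libraries carry no strand and no molecular identifiers, so the 22 genes whose exons overlap another gene's are uncertain, and the limit given for a count of 0 covers counting error only. The submitters' processing notes name GRCm38, bcl2fastq, Bowtie and TopHat2 2.0.13. How reads were counted, and with which annotation, is not given in the sources used here. In the table of the authors, counts are whole numbers per Ensembl gene. The deposited TPM values hold the authors' counts divided by a length per gene, and 333 genes have none.

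Genes were kept by filterByExpr (13560 of 22001), scaled by TMM and compared by edgeR 4.0.16 in R 4.3.3 (robust quasi-likelihood fit, group the only term, two-sided), with Benjamini-Hochberg adjustment over all tested genes and calls at an adjusted p below 0.05. Intervals are 95%, come from that fit and hold the spread between libraries, and SEs were taken from the F statistic. CPM values are TMM-scaled. The fit was tested on simulated data. GENCODE M21, on the same build, gave positions for all 92 genes, and its principal transcripts gave the lengths for the recomputed TPM, a choice made after the deposited TPM were seen. The alternatives were other scalings (RLE, upper quartile, or library sizes without mitochondrial and ribosomal protein genes), other tools (DESeq2 1.42.0 and limma-voom with limma 3.58.1), limma on the deposited TPM as log2(TPM + 1) or log2(TPM + 0.1), other filters (none, or at least 5 CPM in 3 libraries), a block for the replicate number, omission of each library, a non-robust fit, other thresholds and subunits alone.

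The genes and lists were chosen with earlier results of these data known. Named by rule are Insm1, in each complex the 2 tested subunits of highest deposited TPM and the 2 of largest change, the isoforms, Ndufa4, the complex I core, genes too low to test, and in each list up to 2 called genes or, with none called, the most abundant. Other genes were named after their values were seen. Markers of cells from outside the cortical lineage are given as sums per list, and a few other genes the rule takes are not reported here by name.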

Additional observations from a re-analysis of the deposited data

How the results depend on the processing

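Of the 87 genes, 0 were called by any of the 17 alternative fits or at an adjusted p below 0.01 or 0.1, although the calls over all genes ran from 60 with limma on log2(TPM + 1) and 64 on log2(TPM + 0.1) to 1017 with DESeq2, against 454. Leaving out each library gave 101 (without control library 3) to 631 (without control library 2) calls. The median log2 fold change of the oxidative phosphorylation genes was 0.021, and 0.012 to 0.054 with each library left out. It was -0.043 with limma on log2(TPM + 1), where the median of all genes was -0.052, and -0.046 on log2(TPM + 0.1), where that was -0.069; the cause was not tested. With the 15 other fits, on counts, and with the values reported, the median ran from 0.025 to 0.087 for complex I, -0.077 to -0.038 for II, 0.004 to 0.059 for III, 0.027 to 0.108 for IV and -0.045 to 0.014 for V; on TPM all were below 0. With the replicate number as a block the median was 0.019, with 0 of these genes and 331 of all genes called. Deviations from the group means had correlations of -0.00308, -0.0216 and -0.0764 between same-numbered libraries. Between the other libraries of the 2 groups they ran from -0.0523 to 0.0763. With 3 libraries per group, these values cannot show whether a number marks a shared litter or day. Among 912 values of 54 named genes, 65 had the other sign where the gene was called in neither fit and an estimate lay within 1 SE of 0, and 0 called genes changed sign. Of the marker genes, Mfng, Tubb3 and Neurod6 lost their calls in 16 fits in all, and Lhx6, an interneuron marker, gained 1 without control library 2 (log2 -1.48). For Ndufaf1, Ndufaf5, Cox6b2, Cox7a1 and Atp5s the interval reached past 1.5-fold, and the share of depth and of spread between libraries in this was not tested.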
